A study of Mus musculus with 4 samples.

Results

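The 9 genes described here, Gad1, Gad2, Dlx1, Dlx2, Dlx5, Npy, Erbb4, Prox1 and Maf, are genes of GABAergic interneurons, taken by symbol from a deposited table of 32681 genes. All 9 were in the table and all 9 passed the filter on low counts. The table holds 4 RNA sequencing libraries from primary neuron cultures of wild-type CD-1 mice, an outbred strain, made from neocortex at embryonic day 13. A control short hairpin RNA (shRNA) was transfected into 2 of the cultures and a DcpS shRNA into the other 2, where DcpS is the scavenger enzyme that breaks down the cap structure left after mRNA decay. All 4 cultures were grown in Neurobasal medium with B27 supplement. The labels give DcpS shRNA under a single numbered name, and off-target effects of that shRNA were not tested. The labels state no share of transfected cells and do not say whether the cultures came from separate litters. The p-values therefore measure the spread between these 4 libraries, which may be technical.

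Cortical interneurons release the inhibitory transmitter GABA. They are born outside the cortex, in the ganglionic eminences of the ventral forebrain, and migrate tangentially into it. Transcription factors of the Dlx family set up this lineage, the glutamate decarboxylases encoded by Gad1 and Gad2 make GABA, and further transcription factors, receptors and neuropeptides mark subtypes of the mature cells. Several of the 9 genes are also used elsewhere: Prox1 in lymphatic endothelium, dentate granule cells and progenitors, Maf in macrophages and lens, and Erbb4 in heart and in some glia.

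Values are normalised read counts, meaning reads per gene divided by a size factor for each library, and the libraries held 17754768 to 21793685 reads. Dcps itself had 499.8 and 506.6 normalised reads in the control libraries and 114.5 and 119.6 in the DcpS shRNA libraries, so the targeted transcript stood at 23.3% of its control mean. The interneuron genes were weakly expressed beside genes of the main neuron type in these cultures. Per kilobase of exon their control means were 5.29 to 43.8 normalised reads. Those of 12 markers of glutamatergic cortical neurons were 69.5 to 4878, the highest for Neurod6, a transcription factor of cortical projection neurons. Further markers of cortical interneurons were also detected. Lhx6, a transcription factor of interneurons from the medial ganglionic eminence, had 34.2 and 43.1 normalised reads in the controls, the peptide gene Sst 71.3 and 71.8, and the vesicular GABA transporter Slc32a1 18.1 and 16.4. Pvalb was at 1 read or 0 in each library, within the limit of 3 reads that a count of 0 allows.

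Under DcpS shRNA the interneuron genes did not move as a block. The neuropeptide gene Npy rose to 2.22 times its control mean, and the receptor gene Erbb4 and the transcription factor genes Prox1 and Maf fell to 64.3%, 66.0% and 68.4% of theirs. Gad1 stood at 68.0% of its control mean without passing the test, and Gad2, Dlx1, Dlx2 and Dlx5 did not pass it either. Of the 9 genes, 4 were called at an adjusted p under 0.05, 1 higher and 3 lower, in a comparison that called 5.79% of the 18110 genes tested, 2.14% higher and 3.65% lower (limma, Benjamini-Hochberg adjustment over all genes tested). In 6 of the 9 the values of the control and DcpS shRNA libraries did not overlap, against 48.4% of all genes tested. The count of 4 became 1 without control library 1, 2 without control library 2 or without DcpS shRNA library 2, and 3 without DcpS shRNA library 1. With edgeR it was 4, and with DESeq2 0, with 4 at an unadjusted p under 0.05. The median log2 fold change was −0.21 over the 9 genes and 0.00074 over all genes tested. In bulk RNA, fewer cells of a type and less RNA per cell cannot be told apart.

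**Figure D1:**
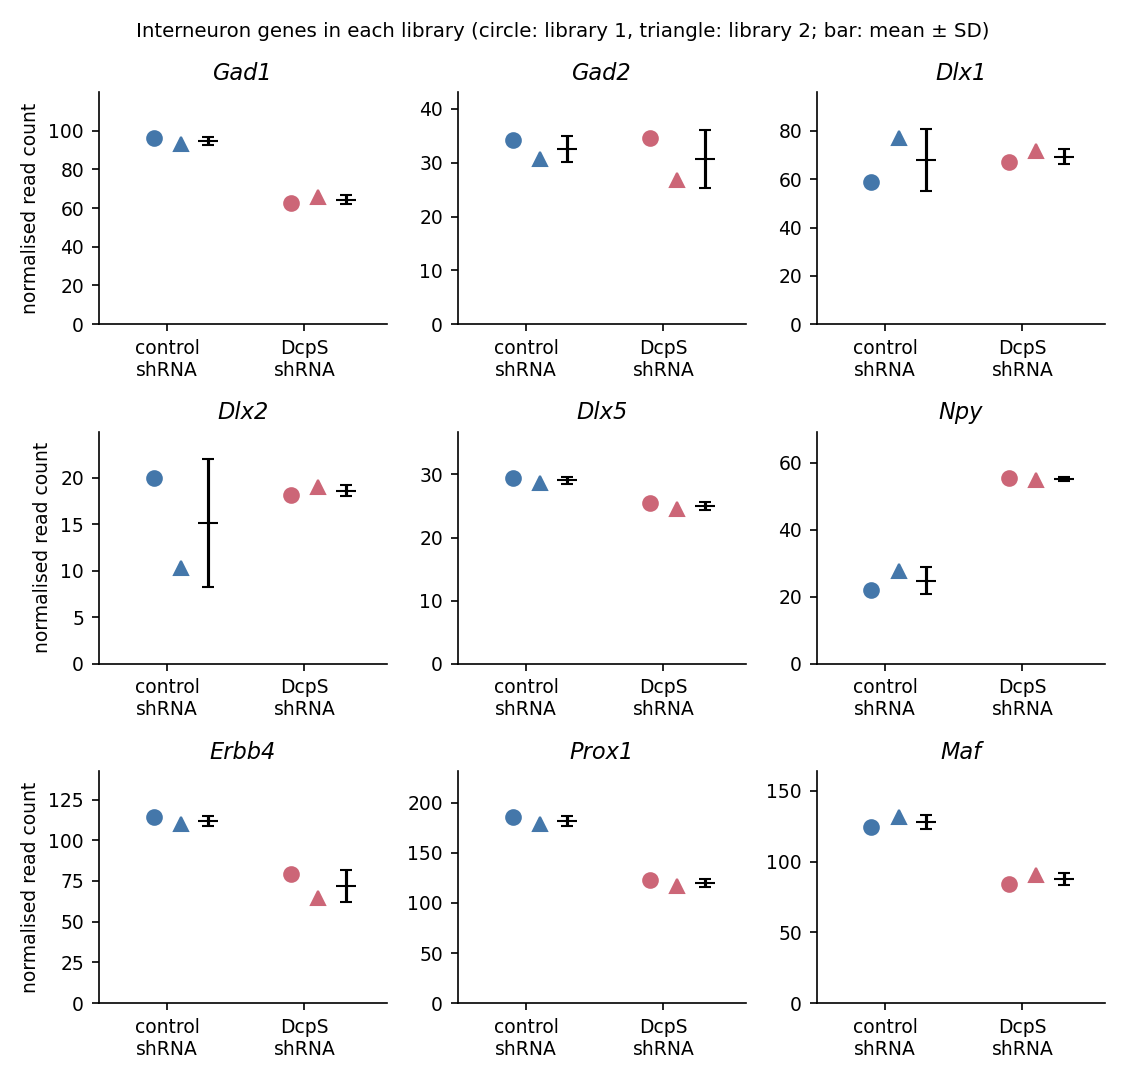
Normalised read counts of the 9 interneuron genes (y axes from 0) in the 2 control shRNA libraries (blue) and the 2 DcpS shRNA libraries (red), with the mean ± SD of each group in black. Gad1, Erbb4, Prox1 and Maf were lower in both DcpS shRNA libraries than in either control, Npy was higher in both, Dlx5 was slightly lower in both, and the groups overlap for Gad2, Dlx1 and Dlx2.

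Gad1 and Gad2 encode the glutamate decarboxylases, the enzymes that turn glutamate into GABA. The Gad1 enzyme is spread through the cell body and makes most of the basal GABA, and the Gad2 enzyme sits mainly at nerve terminals. Gad1 lies on chromosome 2 from 70553072 to 70602014 on the plus strand, and Gad2 on the same chromosome from 22622205 to 22693874 on the plus strand (GRCm38, GENCODE M21). The promoters of this pair are shown because both genes make GABA, and the windows show the letters before each RefSeq start site side by side. The Gad1 window lies wholly inside the GENCODE gene given above, downstream of its first base, and the Gad2 window spans the first base of its gene. Each runs from 250 bases before to 50 bases after the RefSeq start site (build GRCm38.p6), and capitals mark matches on either strand to TGCTGA, the half-site bound by Maf proteins, to TAATTA, the core bound by Dlx and other homeodomain proteins, or to TATAAA.
Gad1, chr2:70561879-70562178, plus strand: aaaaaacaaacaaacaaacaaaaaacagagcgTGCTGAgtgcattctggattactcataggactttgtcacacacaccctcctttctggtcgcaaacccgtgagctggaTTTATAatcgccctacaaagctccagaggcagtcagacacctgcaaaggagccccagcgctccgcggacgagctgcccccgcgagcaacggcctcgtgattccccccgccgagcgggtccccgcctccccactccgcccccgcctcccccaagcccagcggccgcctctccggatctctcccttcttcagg
Gad2, chr2:22622077-22622376, plus strand: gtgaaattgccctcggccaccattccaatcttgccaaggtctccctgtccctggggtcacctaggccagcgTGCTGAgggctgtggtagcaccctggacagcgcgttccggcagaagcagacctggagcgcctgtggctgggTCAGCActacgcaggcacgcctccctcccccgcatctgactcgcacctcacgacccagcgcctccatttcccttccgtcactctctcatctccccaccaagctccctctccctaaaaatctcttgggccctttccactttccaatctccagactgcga
Both windows hold TGCTGA or its reverse complement, once in Gad1 and at 2 places in Gad2, and neither holds TAATTA. The Gad1 window also holds TTTATA, the reverse complement of TATAAA. Of 32851 promoters of the same length, 19.5% hold TGCTGA, 5.29% TAATTA and 13.6% TATAAA, on either strand. A match is a description of letters and was not tested for binding.

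Gad1 had 96.0 and 93.3 normalised reads in control libraries 1 and 2 and 62.7 and 65.9 in DcpS shRNA libraries 1 and 2. Both DcpS shRNA values lay below both controls. The group means were 94.6 ± 1.87 and 64.3 ± 2.29 (SD, n = 2 per group), a log2 fold change of −0.55 (SE 0.17). Its 95% interval ran from −0.91 to −0.19, but the adjusted p was 0.0716, so Gad1 was not called (limma, Benjamini-Hochberg). With the library number as a block the adjusted p was 0.0357 (limma, Benjamini-Hochberg), the only one of 14 alternative settings that called it.

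Gad2 had 34.2 and 30.8 normalised reads in the controls and 34.5 and 26.8 under DcpS shRNA. The highest and the lowest of the 4 values were both DcpS shRNA libraries, and the groups overlap. The log2 fold change was −0.09 (SE 0.26), with a 95% interval from −0.64 to 0.46 that includes the value of Gad1. Gad2 was counted with 24 to 38 reads per library, and a change of that size was not detectable at this depth. The ratio of Gad1 to Gad2 within a library was 2.81 and 3.03 in the controls and 1.82 and 2.46 under DcpS shRNA. The ratios do not overlap between groups, and the exact two-sided permutation test gave p = 0.333, the smallest that 2 against 2 libraries allow.

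The genes around the decarboxylases in GABA metabolism gave 1 call among 9 tested. Abat, the transaminase that breaks GABA down, was lower in both DcpS shRNA libraries (417.9 and 421.3 against 514.0 and 551.7 normalised reads), and its log2 fold change of −0.34 (SE 0.08) passed the test (limma, Benjamini-Hochberg adjusted p 0.0189). The call ended without control library 2 (limma, Benjamini-Hochberg adjusted p 0.178) and in DESeq2 (0.148). The vesicular transporter Slc32a1 had a log2 fold change of 0.28 and did not pass. The glutamine transporter Slc38a1, among the most abundant genes of this list by reads, had a value of −0.01. The median of the list was −0.01.

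Dlx1, Dlx2 and Dlx5 encode distal-less homeodomain transcription factors that specify ventral forebrain progenitors and switch on Gad genes. Dlx1 and Dlx2 are neighbours on chromosome 2, at 71528113 to 71533981 on the plus strand and 71543408 to 71546754 on the minus strand, and Dlx5 lies on chromosome 6 at 6877805 to 6882085 on the minus strand (GRCm38, GENCODE M21). None of the 3 was called. Dlx1 had 58.9 and 76.9 normalised reads in the controls and 67.2 and 71.5 under DcpS shRNA, so both DcpS shRNA values fell between the controls. Its log2 fold change was 0.04, with a 95% interval from −0.36 to 0.45.

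Dlx2, with the fewest reads of the 9 genes, had 20.0 and 10.3 normalised reads in the controls and 18.2 and 19.0 under DcpS shRNA. Control library 2 stood apart at 10 reads, and the other 3 libraries lay within 17 to 21 reads. The log2 fold change of 0.35 has a 95% interval from −0.45 to 1.15, and without control library 2 it was −0.10. Dlx5 had 29.5 and 28.7 normalised reads in the controls and 25.4 and 24.6 under DcpS shRNA, lower in both without overlap. That is a log2 fold change of −0.21 with a 95% interval from −0.78 to 0.36, at 22 to 31 reads per library.

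Exons of Dlx1 overlap those of the antisense gene Dlx1as over 335 bases, 6.21% of the exonic length of Dlx1, and whether reads were counted by strand is not given. The same limit holds for Maf, whose exons overlap the antisense gene Gm15655 over 440 bases (5.34%). Exons of Prox1 overlap the antisense gene Prox1os over 133 bases (1.6%). Dlx1as had 31.4 and 23.6 normalised reads in the controls and 27.3 and 15.6 under DcpS shRNA, and Dlx6os1, the antisense transcript at the Dlx5 and Dlx6 pair, had 26.6 and 27.7 against 20.0 and 22.3. Neither was called, with log2 fold changes of −0.38 and −0.35. Dlx6, the partner of Dlx5, had 4.75 to 6.70 normalised reads and was too low to be tested, as were Dlx3 and Dlx4. The promoters of Dlx1 and Dlx2 held none of the 3 motifs within these windows, and the Dlx1 window lies inside its GENCODE gene.

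Among 14 tested transcription factors of the ganglionic eminences and of interneurons, 1 was called. Etv1, an ETS factor that also marks deep-layer projection neurons, fell by 0.52 on the log2 scale (SE 0.09), from 496.0 and 565.1 normalised reads to 394.3 and 346.4 (limma, Benjamini-Hochberg adjusted p 0.00291). Lhx6 had 37.3 and 34.6 normalised reads under DcpS shRNA, a log2 fold change of −0.09. The zinc finger factor Sp8 had a value of 0.21 and did not pass. Zeb2 and Nr2f1, the most abundant of the list and active in other cortical cells too, had values of 0.01 and 0.00. The list's median was −0.04.

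Prox1 encodes a homeodomain protein that marks and maintains interneurons from the caudal ganglionic eminence, and Maf a basic leucine zipper factor of interneurons from the medial ganglionic eminence. Prox1 lies on chromosome 1 from 190118035 to 190170714 on the minus strand, and Maf on chromosome 8 from 115682942 to 115707794 on the minus strand (GRCm38, GENCODE M21). Prox1 was the member with the most reads. It had 185.3 and 178.4 normalised reads in the controls and 122.7 and 117.3 under DcpS shRNA.
Both DcpS shRNA values lay well below both controls. The means were 182 ± 4.84 and 120 ± 3.76 (SD, n = 2 per group), a log2 fold change of −0.60 (SE 0.13, limma, Benjamini-Hochberg adjusted p 0.0112). The call ended without control library 1 (limma, Benjamini-Hochberg adjusted p 0.0645) and in DESeq2 (0.119).

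Maf had 124.5 and 131.3 normalised reads in the controls and 84.5 and 90.5 under DcpS shRNA, again without overlap. The means were 128 ± 4.81 and 87.5 ± 4.26 (SD, n = 2 per group), a log2 fold change of −0.54 (SE 0.15, limma, Benjamini-Hochberg adjusted p 0.0437). This was the member nearest to the threshold among those called, and its call ended when any 1 of the 4 libraries was left out, with adjusted p from 0.0534 to 0.226 (limma, Benjamini-Hochberg), and in DESeq2 (0.337). The small Maf genes Mafg and Mafk had log2 fold changes of 0.01 and −0.24, and 0 of the 4 other tested Maf genes were called (limma at an adjusted p under 0.05, with 0 at an unadjusted p under 0.05 and 0 called by edgeR or DESeq2).

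Erbb4 encodes a receptor tyrosine kinase for neuregulins, found in cortex mainly on interneurons, where it takes part in their migration and in the synapses they receive. It lies on chromosome 1 from 68032186 to 69108059 on the minus strand (GRCm38, GENCODE M21). Erbb4 had 114.0 and 109.7 normalised reads in the controls and 79.0 and 64.8 under DcpS shRNA. The controls lay close together, and the DcpS shRNA libraries were apart from each other but both lower. The means were 112 ± 3.03 and 71.9 ± 10.1 (SD, n = 2 per group), a log2 fold change of −0.64 (SE 0.17, limma, Benjamini-Hochberg adjusted p 0.0337). The call ended without control library 1 (limma, Benjamini-Hochberg adjusted p 0.143), control library 2 (0.0981) or DcpS shRNA library 2 (0.148), and in DESeq2 (0.274).

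Of 8 tested Erbb4 ligands and Erbb receptors, 1 was called. Nrg3, a neuregulin that binds Erbb4, rose by 0.40 on the log2 scale (SE 0.11, limma, Benjamini-Hochberg adjusted p 0.0373), from 295.5 and 296.4 normalised reads to 440.7 and 348.7. The ligand was thus called in the direction opposite to its receptor. The call of Nrg3 ended without control library 1 (limma, Benjamini-Hochberg adjusted p 0.0813), control library 2 (0.0820) or DcpS shRNA library 1 (0.262), and without the last its log2 fold change was 0.24. It also ended in DESeq2 (adjusted p 0.163). Nrg1, a further ligand and the gene of the list with the most reads, had a log2 fold change of 0.16 and was not called. That value was 0.050 without DcpS shRNA library 1 and 0.27 without DcpS shRNA library 2, where it was called (limma, Benjamini-Hochberg adjusted p 0.0328). The related receptors Egfr and Erbb2 had values of −0.32 and −0.29 and Erbb3 one of 0.74, and none of these passed.

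The promoters of Prox1 and Erbb4, whose transcripts fell, are shown with that of Npy, whose transcript rose. Of the start sites RefSeq gives for Prox1, the most upstream is used, and capitals mark the same motifs as above.
Prox1, chr1:190170778-190171077, minus strand: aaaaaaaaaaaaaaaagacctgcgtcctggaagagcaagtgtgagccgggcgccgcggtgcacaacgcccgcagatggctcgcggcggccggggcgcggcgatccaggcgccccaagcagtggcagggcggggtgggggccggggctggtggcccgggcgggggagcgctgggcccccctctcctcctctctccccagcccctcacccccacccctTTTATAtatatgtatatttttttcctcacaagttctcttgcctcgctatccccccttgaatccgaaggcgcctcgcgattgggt
Erbb4, chr1:69108010-69108309, minus strand: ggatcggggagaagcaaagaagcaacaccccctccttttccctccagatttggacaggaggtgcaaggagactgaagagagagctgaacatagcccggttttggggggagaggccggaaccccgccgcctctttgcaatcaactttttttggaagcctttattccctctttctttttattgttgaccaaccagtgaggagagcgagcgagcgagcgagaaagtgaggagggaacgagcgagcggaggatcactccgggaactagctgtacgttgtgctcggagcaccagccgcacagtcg
Npy, chr6:49822460-49822759, plus strand: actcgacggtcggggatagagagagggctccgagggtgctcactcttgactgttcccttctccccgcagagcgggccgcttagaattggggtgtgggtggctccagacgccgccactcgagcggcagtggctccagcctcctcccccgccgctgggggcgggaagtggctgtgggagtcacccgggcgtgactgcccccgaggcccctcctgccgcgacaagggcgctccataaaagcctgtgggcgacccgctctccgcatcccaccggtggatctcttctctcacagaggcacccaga
Prox1 holds TTTATA, the reverse complement of TATAAA, from 34 bases before the start site used here. This window lies wholly upstream of the GENCODE gene. The window of the other RefSeq start site of Prox1, chr1:190169466-190169765, lies inside the gene and holds none of the 3 motifs. The windows of Erbb4 and Npy hold none of the 3 motifs. G and C made up 64.3%, 55.3% and 68.0% of the bases, against a median of 52.7% over all promoters of this length.

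Npy encodes neuropeptide Y, a peptide stored in dense-core vesicles that dampens transmitter release and is made by several interneuron classes. The gene lies on chromosome 6 from 49822710 to 49829507 on the plus strand and has an exonic length of 566 bases, the shortest of the 9 (GRCm38, GENCODE M21). It had 21.9 and 27.7 normalised reads in the controls and 55.4 and 54.8 under DcpS shRNA. Both DcpS shRNA values lay far above both controls and close to each other. The means were 24.8 ± 4.13 and 55.1 ± 0.470 (SD, n = 2 per group), from 23 and 27 reads against 61 and 49. The log2 fold change was 1.13 (SE 0.24), with a 95% interval from 0.62 to 1.64, and passed the test (limma, Benjamini-Hochberg adjusted p 0.00953).

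Npy was the only member still called whichever library was left out, with adjusted p from 0.00484 to 0.0449 (limma, Benjamini-Hochberg). DESeq2 gave no adjusted p for Npy because its own filter removed the gene (unadjusted p 0.00602), and gave 0.162 without that filter (Benjamini-Hochberg). Per kilobase of exon, Npy was the most abundant of the 9 in every library.

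Among 5 tested genes that process neuropeptides or receive Npy, 0 were called (limma at an adjusted p under 0.05; edgeR called 1, Pcsk2, and DESeq2 0), and 4 had an unadjusted p under 0.05. The Y1 receptor gene Npy1r had a log2 fold change of −0.41 and the prohormone convertase Pcsk2 one of 0.36 (limma, Benjamini-Hochberg adjusted p 0.237 and 0.0551). The carboxypeptidase Cpe and the amidating enzyme Pam, which finish the peptide, had values of −0.15 and −0.12, and Cpe was called without DcpS shRNA library 2 (limma, Benjamini-Hochberg adjusted p 0.0352). Pcsk2 was called with the library number as a block (limma, Benjamini-Hochberg adjusted p 0.00581), without the filter on low counts (0.0314) and without DcpS shRNA library 2 (0.00481). Of 12 tested interneuron subtype and peptide genes 0 were called by limma either, with 3 at an unadjusted p under 0.05 and 0 called by edgeR or DESeq2. Sst had 65.4 and 64.8 normalised reads under DcpS shRNA, a log2 fold change of −0.13. The serotonin receptor Htr3a (0.84) and the peptide gene Cort (0.62) were higher in both DcpS shRNA libraries and the calcium-binding protein gene Calb1 (−0.69) was lower in both, at adjusted p of 0.155, 0.156 and 0.187 (limma, Benjamini-Hochberg). Reln and Kit, the genes of that list with the most reads, had values of −0.10 and −0.08. For Reln the value was −0.020 without DcpS shRNA library 2 and −0.18 without DcpS shRNA library 1, where it was called (limma, Benjamini-Hochberg adjusted p 0.00655).

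**Figure D2:**
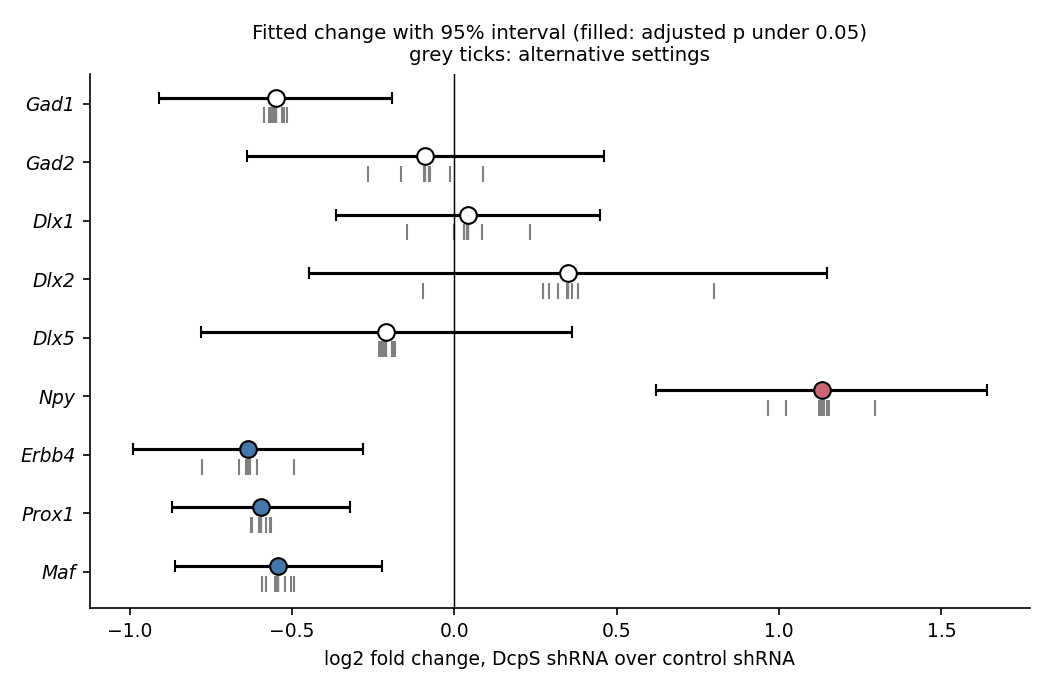
Log2 fold change of each of the 9 genes, DcpS shRNA over control shRNA (x axis), as fitted by limma with its 95% interval, with filled points for genes called at an adjusted p under 0.05. Grey ticks give the value under each alternative setting. Npy at 1.13 and Erbb4, Prox1 and Maf at −0.54 to −0.64 kept their direction in every setting, as did Gad1 and Dlx5, whereas ticks of Gad2, Dlx1 and Dlx2 lie on both sides of 0.

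Levels of different genes were compared per kilobase of exon, counting every annotated exon once. In the controls the order was Npy (43.8 normalised reads per kilobase), Prox1 (21.7), Maf (15.5), Dlx5 (12.9), Dlx1 (12.6), Gad1 (12.4), Erbb4 (9.06), Gad2 (5.53) and Dlx2 (5.29). Dlx1, at 10.9 and 14.3, spanned the values of both Dlx5 and Gad1, so it does not differ from either beyond its spread. Dlx2, at 6.99 and 3.59, likewise spanned Gad2. Under DcpS shRNA the level of Npy was 97.3 per kilobase and that of Prox1 14.3, followed by Dlx1 (12.9), Dlx5 (11.1), Maf (10.6), Gad1 (8.42), Dlx2 (6.51), Erbb4 (5.82) and Gad2 (5.22). Erbb4, at 6.40 and 5.25, overlapped Gad2, at 5.88 and 4.56, and Dlx2, at 6.36 and 6.65. Maf, at 10.3 and 11.0, overlapped Dlx5, at 11.2 and 10.9. The order within each of these pairs is not beyond their spread. The share of Npy in the reads summed over all 9 went from 3.19% and 4.03% in the controls to 10.1% and 10.2%, and that of Prox1, the largest, from 27.1% and 26.0% to 22.3% and 21.9%.

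**Figure D3:**
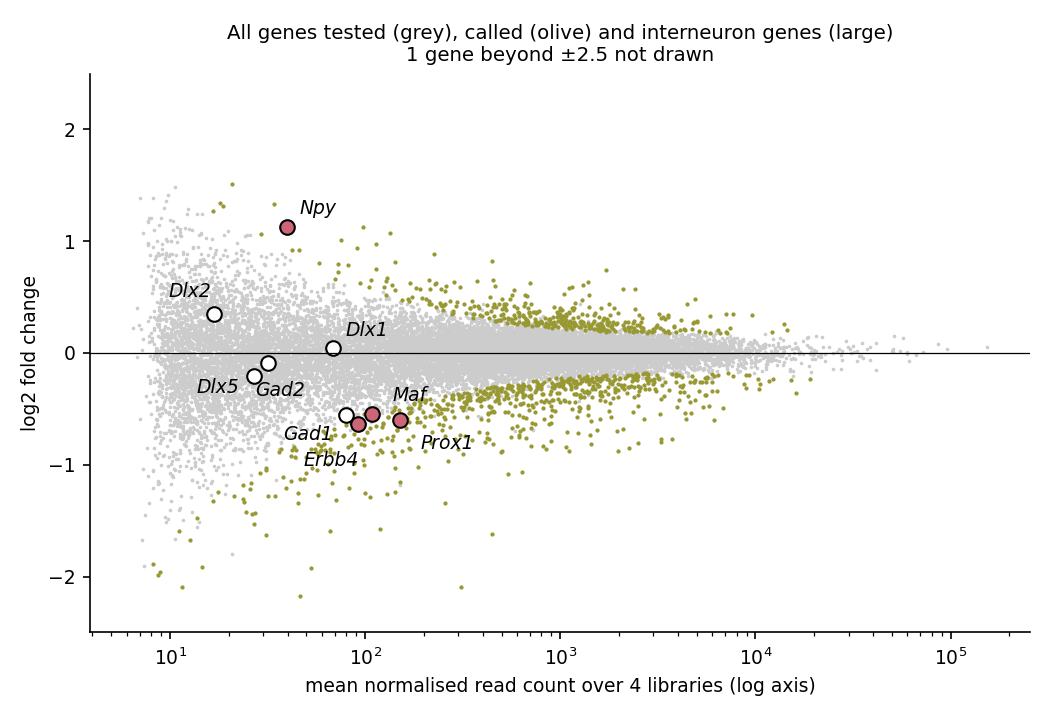
Log2 fold change (y axis) against the mean normalised read count over the 4 libraries (x axis, log scale) for 18110 tested genes, with called genes in olive and the 9 interneuron genes as large points, red where called. The 9 lie in the lower part of the range of levels, where the fitted errors are wide: Gad2, Dlx2 and Dlx5 sit among uncalled genes, and Npy stands above them at 1.13.

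Fibroblast and astrocyte markers were lower beside the members that fell, and other cell types gave single calls. All 6 tested fibroblast markers were lower, led by Col1a1 (−0.87), Col1a2 (−0.85), Col3a1 (−0.77) and the mural and fibroblast receptor Pdgfrb (−0.72), and the list's sum was 10756 and 11856 normalised reads in the controls against 6690 and 6398 under DcpS shRNA. All 6 astrocyte markers had lower values in both DcpS shRNA libraries than in either control, at an unadjusted p under 0.05 (limma). Of these, 4 were called. They were the water channel gene Aqp4 (−1.13), the filament gene Gfap (−0.91), the gap-junction gene Gja1 (−0.67) and the secreted glycoprotein gene Sparcl1 (−0.45). The glutamate transporter Slc1a3 (−0.12) did not pass. The list's sum was 5816 and 6069 normalised reads in the controls against 4639 and 4880 under DcpS shRNA. Slc1a3 and Sparcl1 together make up most of this sum, so it says little about the other markers. Of 4 tested oligodendrocyte lineage markers Pdgfra (−0.63) was called lower. The list's sum was 301 to 304 normalised reads in the controls against 205 to 227 under DcpS shRNA. Pdgfra alone had 148.2 and 152.8 of these in the controls and 101.8 and 92.8 under DcpS shRNA. Sox10, which defines the lineage, was at 0 reads in both controls and at 1 and 4 reads under DcpS shRNA. The sum therefore says little about this lineage, and which cells carried the Pdgfra reads was not tested. Olig1 (−0.58) and Olig2 (−0.79) had lower values in both DcpS shRNA libraries without being called, and Cspg4 (−0.09) overlapped. Of 3 tested endothelial and lymphatic markers the receptor Kdr (−0.74) was lower, with sums of 107 to 152 against 86.3 to 87.2, or 22.8 and 43.1 against 28.2 and 31.3 without Kdr. The adhesion gene Pecam1 had higher values in both DcpS shRNA libraries (log2 fold change 0.93) and was not called, and Cldn5, a defining junction gene, was at 2 reads or fewer in each library. Without control library 2 the calls of Pdgfra, Kdr, Dcn, Aqp4 and Gfap ended (limma, Benjamini-Hochberg adjusted p 0.0812, 0.277, 0.0717, 0.0698 and 0.250), and the log2 fold change of Gfap was then −0.51. Without DcpS shRNA library 1 those of Aqp4 (0.0501) and Gfap (0.0957) ended, and without DcpS shRNA library 2 that of Gfap (0.113; limma, Benjamini-Hochberg). DESeq2 called 4 of the 6 fibroblast and 3 of the 6 astrocyte markers and 0 of the oligodendrocyte and endothelial ones. In each of those last lists edgeR called 1, and the unadjusted limma p was under 0.05 for 3 oligodendrocyte and 2 endothelial markers. The 9 interneuron genes summed to 535 to 550 under DcpS shRNA, 78.1% and 80.2% of the control mean. Prox1, Maf and Erbb4, which were called lower, together make up most of this sum. The sum therefore mainly follows them and says little about Gad2, Dlx1, Dlx2 or Dlx5. The part of fibroblasts, astrocytes and the other cell types above in the values of Prox1, Maf, Erbb4 and Gad1 was not tested.

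Microglia and macrophage markers, which bear on Maf, had values on both sides of 0, with a list median of −0.11. Their sum was 200 to 214 normalised reads in the controls and 218 to 222 under DcpS shRNA, and 1 of 6 tested was called, the lysosomal gene Laptm5, which was higher (0.73). That call ended without control library 1 (limma, Benjamini-Hochberg adjusted p 0.223), without DcpS shRNA library 1 (0.128) and in DESeq2 (0.258), which called 0 of the list, where edgeR called 1. Without Laptm5 the sum was 152.0 and 152.8 against 120.8 and 138.6, lower in both DcpS shRNA libraries. Aif1 (−0.43), Cx3cr1 (−0.50) and Csf1r (−0.25) had lower values in both DcpS shRNA libraries than in either control, and none of these passed. The part of these cells in the value of Maf was not tested. P2ry12, a defining microglial gene, was at 1 read or 0 in the controls and at 3 reads and 0 under DcpS shRNA. Dentate granule cell markers, which bear on Prox1, gave 0 calls among 2 tested (limma at an adjusted p under 0.05, 0 at an unadjusted p under 0.05 and 0 called by edgeR or DESeq2), with log2 fold changes of −0.27 for Dsp and 0.48 for Tdo2 and with C1ql2 at 5 reads or fewer in each library.

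Markers of other neurons gave 1 call in each of 3 lists. Among 11 tested markers of striatal projection neurons, the other main GABAergic class of the ventral forebrain, 1 was lower, the transcription factor Ebf1 (−1.16), at 42.8 and 29.7 against 16.4 and 14.5 normalised reads. Meis2 and Foxp1, the most abundant of them, had values of −0.01 and −0.11, and the list's sum was 7484 to 7524 in the controls and 7276 to 7507 under DcpS shRNA. Meis2 alone had 5472 and 5516 normalised reads in the controls, so this sum mainly follows Meis2 and says little about the other markers. Of 12 glutamatergic markers the vesicular transporter Slc17a7 was higher (0.52) and 11 were not called, with a list median of −0.03. Neurod6 (−0.18) lay near the threshold (limma, Benjamini-Hochberg adjusted p 0.0537) and was called with TMM scaling (0.0487), without the filter on low counts (0.00634), with the library number as a block (0.0226) and without DcpS shRNA library 1 (0.0452) or 2 (0.000702). Neurod2 had a value of −0.03. Of 6 Cajal-Retzius cell markers Nhlh2 was higher (0.60) and the rest did not pass. In the 6 genes of interneuron migration, the Slit receptors Robo2 (−0.35) and Robo1 (−0.26) and the chemokine Cxcl12 (−0.34), which is made by meninges and progenitors, were lower, and the chemokine receptor Cxcr4 and the ephrin receptor Epha4 were not called. Per kilobase of exon Robo1 and Robo2 had control means of 257 and 285, against 5.29 to 43.8 for the 9 interneuron genes. Which cells carried the Robo1 and Robo2 reads was not tested. Calls ended for Ebf1 without control library 1 (limma, Benjamini-Hochberg adjusted p 0.309) and also without DcpS shRNA library 2 (0.0696) and for Robo1 without control library 1 (0.0968). The call of Cxcl12 ended without control library 1 (limma, Benjamini-Hochberg adjusted p 0.0638), control library 2 (0.145) or DcpS shRNA library 1 (0.0507), and in DESeq2 (0.176).

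**Figure D4:**
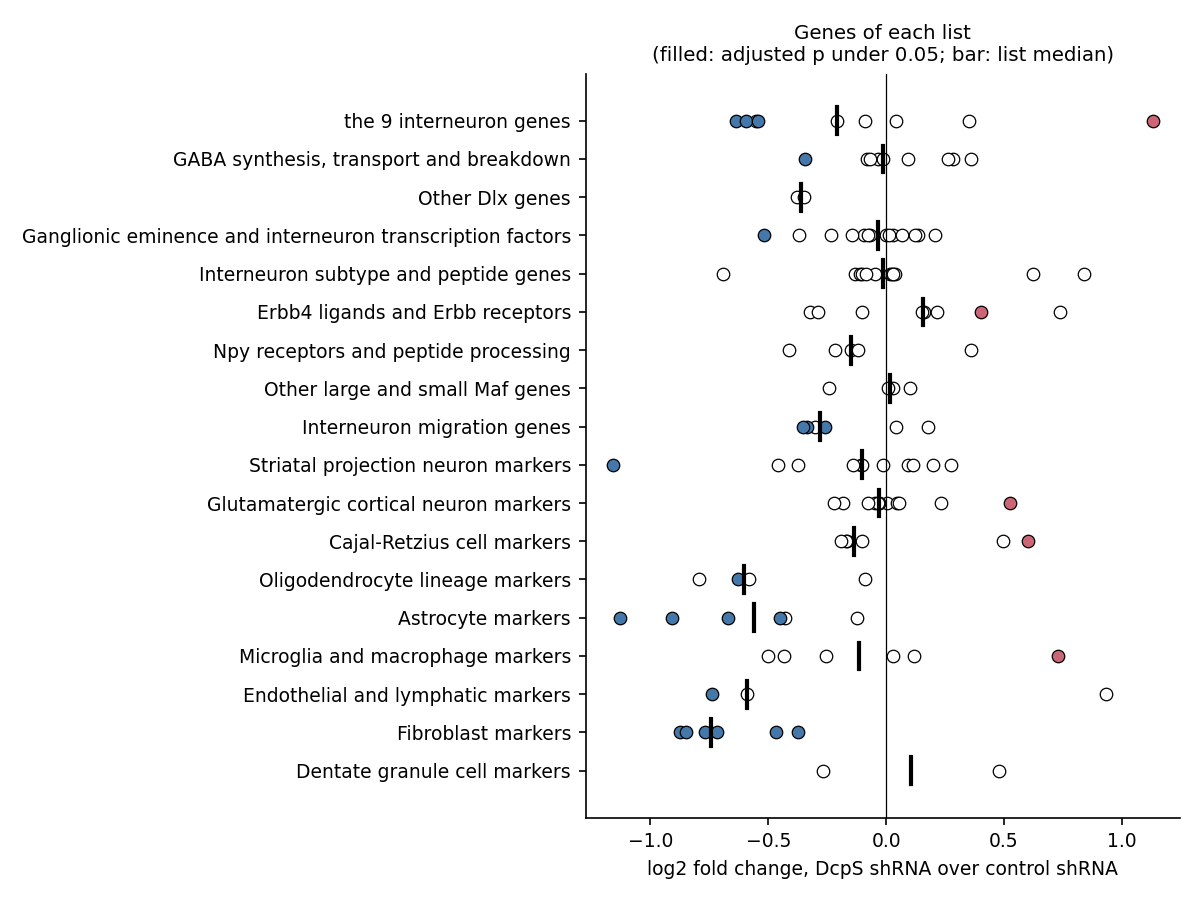
Log2 fold change (x axis) of each tested gene in the 9 interneuron genes and in 17 lists of related genes and cell markers, with filled points at an adjusted p under 0.05 (red higher, blue lower) and a bar at each list's median. Called genes lie on both sides of 0 for the 9 interneuron genes, whereas all 6 called fibroblast markers and all 4 called astrocyte markers lie below 0.

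Over the 17 lists, 114 different genes were tested besides the 9, and 22 were called, 4 higher and 18 lower. Over all 18110 genes tested, 5.79% were called, 2.14% higher and 3.65% lower. The lists were chosen with earlier results of these data known, so the count is not a result about these lists. Of those 114, the genes whose values over the 4 libraries were most like each called member were picked by the smallest distance between log2 values centred on their mean. For Prox1 and for Erbb4 these were Pdgfra and Pdgfrb, at distances of 0.0897 and 0.156 for Prox1 and 0.127 and 0.171 for Erbb4. For Maf they were the matrix proteoglycan gene Dcn (0.0778) and the astrocyte gene Sparcl1 (0.101). For Npy they were Erbb3 (0.412) and Laptm5 (0.426), both further from it. With 4 libraries in 2 groups this likeness is a description only.

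**Figure D5:**
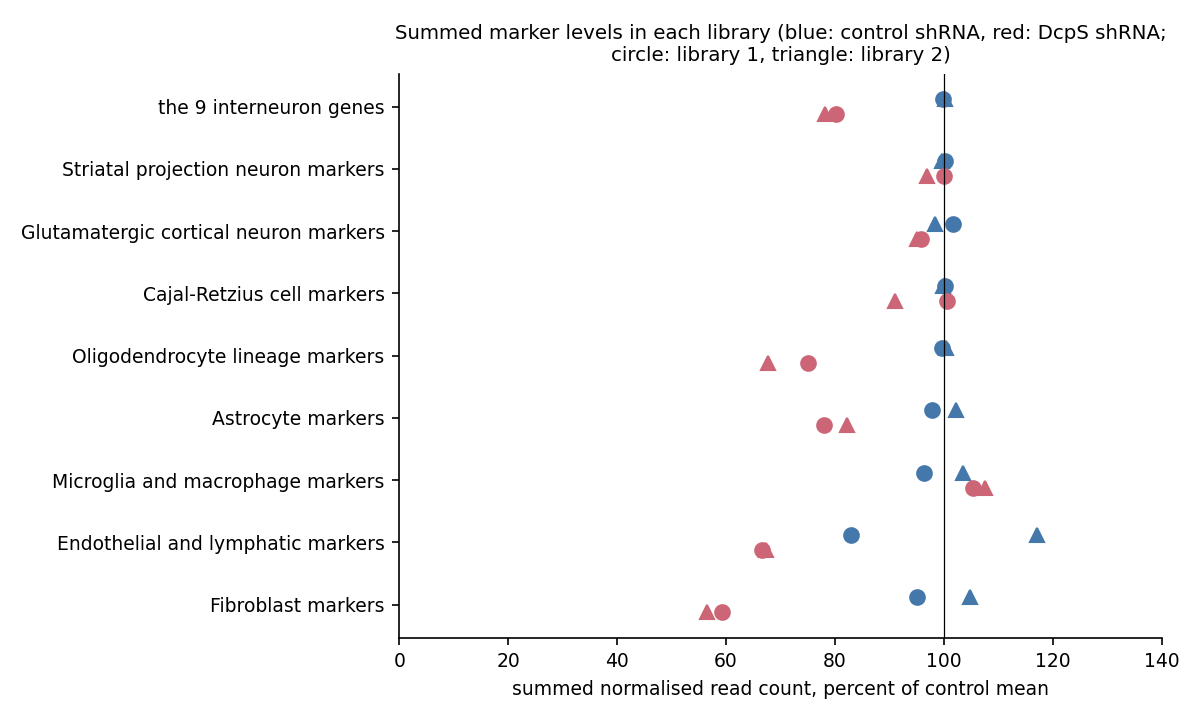
Summed normalised read count of the 9 interneuron genes and of 8 marker lists in each library, as a percentage of the control mean (x axis from 0), with control shRNA in blue and DcpS shRNA in red. The interneuron genes lie at 78.1% and 80.2% under DcpS shRNA, fibroblast markers at 56.6% and 59.2%, astrocyte markers at 78.1% and 82.1%, and striatal projection neuron markers at 97.0% and 100.04%. Meis2 makes up most of the striatal sum, and Prox1, Maf and Erbb4 together make up most of the interneuron sum. Slc1a3 and Sparcl1 together make up most of the astrocyte sum.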

How the data were processed

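Gene-level RNA sequencing values of 4 libraries, 2 per group, were analysed, with groups taken from the sample titles. The submitters' processing notes name HISAT2 2.2.0, SAMtools 1.3.1, Picard, featureCounts and DESeq2 with build GRCm38. For settings, annotation and strandedness the sources used here give nothing. The deposited values are a signal scaled by the authors: 100% of values in each library were whole multiples of the column's smallest positive value (tolerance 0.001), so whole reads were recovered, and the factors of 1.05, 0.975, 1.10 and 0.895 equalled median-of-ratios size factors. Such scaling hides a shift shared by all transcripts.

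Genes passing edgeR's filterByExpr (minimum count 10) were fitted with limma 3.58.1 on log2(normalised read count + 1), which understates changes of low genes. The fit used an intensity trend, robust empirical Bayes and group as the only term, and two-sided p-values were adjusted by Benjamini-Hochberg over all 18110 genes. With 2 residual degrees of freedom, p-values lean on the spread pooled across genes. Alternatives were edgeR 4.0.16 and DESeq2 1.42.0 on recovered reads (R 4.3.3), other scalings, pseudocounts and filters, a block and leaving out each library. The script was tested on simulated reads. The libraries held 20868871, 19310652, 21793685 and 17754768 reads, and an upper limit of 3 reads for a count of 0 covers counting error only. Within a group the 2 libraries differed beyond sampling noise (chi-square over its degrees of freedom 2.14 for the controls, 3.98 for DcpS shRNA), so none was counted as a copy.

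The members and lists were chosen with earlier results of these data known. Named from each list were called genes (at most 4) and the 2 most abundant, and the 2 most alike to each called member; Slc32a1, Lhx6, Sp8, Sst, Htr3a, Cort, Calb1, Npy1r, Pcsk2, Egfr, Erbb2, Cxcr4, Dlx3, Dlx4, Dlx6, Pvalb, Sox10, Cldn5, P2ry12, Cx3cr1, Csf1r, Olig1, Olig2 and C1ql2 were named after their values were seen. Positions and exonic lengths come from GENCODE M21 and promoters from RefSeq, which matched 7 of the 9 genes. Listed genes without a row in the table (Gsx1, Nkx6-2, Vip and Lyve1) were not analysed here, and single values of some listed genes are not reported here.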

Additional observations from a re-analysis of the deposited data

How the results depend on the processing

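The genes called numbered 1048, and 453 with DESeq2, 422 with DESeq2 without its independent filtering (chosen after seeing the data), 1626 with the replicate block, and 594 to 1439 when 1 library was left out. Of the 9 interneuron genes 4 were called, 5 with the replicate block (Gad1 in addition), 0 with DESeq2 with or without its filtering, and 1 to 3 when 1 library was left out. Without a library an arm holds a lone sample, which is assumed to vary like the others. The sample titles carry the same set numbers in both arms, without saying whether same-numbered cultures were prepared together. Deviations of same-numbered libraries correlated at 0.0429 across genes, which does not settle whether they are pairs. The main fit took them as unpaired. Over 14 alternatives the 9 genes gave 118 values, of which 98 kept direction and side of the threshold, 15 lost a call, 1 gained one and 4 changed sign. The log2 fold change was at least 0.97 for Npy and ran from −0.78 to −0.50 for Erbb4, −0.63 to −0.56 for Prox1 and −0.59 to −0.49 for Maf. The sign changes were all in uncalled genes when 1 library was left out, where the log2 fold change ran from −0.27 to 0.087 for Gad2, −0.15 to 0.23 for Dlx1 and −0.10 to 0.80 for Dlx2. Among the other named genes the same held for Slc38a1 (−0.064 to 0.037), Dlx1as (−0.76 to 0.0026), Zeb2 (−0.080 to 0.10), Nr2f1 (−0.052 to 0.048), Mafg (−0.0078 to 0.028), Epha4 (−0.048 to 0.13), Meis2 (−0.042 to 0.014), Neurod2 (−0.095 to 0.032) and Lhx6 (−0.26 to 0.069). Over the 58 other genes followed, 729 values gave 677 with the same direction and side of the threshold, 28 lost calls, 12 gained calls and 12 changed signs. The causes were not tested. The filter at a mean of 50 left out Gad2, Dlx2, Dlx5 and Npy, and DESeq2's filtering gave these 4 no adjusted p. Depth limits the Dlx2, Dlx5 and Gad2 values most, at 10 to 38 reads per library.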
